A study of Drosophila melanogaster with 16 samples.

Results

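The genes described here are those whose levels differed at least 4-fold between dfr14 and control larvae in the same direction in 2 separately dissected and separately tabulated tissues, the complex of brain and ring gland (BRGC) and the remaining larval body. A gene was a member when the means of its deposited log2 values (log2 of reads per 1e6 reads counted, CPM) in the 4 dfr14 and the 4 control libraries lay at least 2 apart in both tissues with 1 sign, and when no dfr14 value lay among the control values in either tissue. Of the 9256 genes listed for both tissues, 68 met these conditions. Of these, 33 were set aside by symbol (20 of them loci with CR symbols, the others mitochondrially encoded transcripts, cytochrome P450, cuticle, glutathione S-transferase and integrin genes and a few single genes), which left 35 members. In dfr14 larvae 31 of the members were higher and 4 were lower. Members were thus chosen by their measured levels in this same contrast, so their differences are given as a description and were not tested.

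The dfr14 libraries came from larvae homozygous for dfr14, a small deletion just 3′ of the first stop codon of *dfr* (*ventral veins lacking*, listed as *vvl*), made with CRISPR in a line carrying *vasa::Cas9*. The control libraries are those titled control, without dfr14, and the labels name w[1118] as the background strain of all samples. The genotype tag of the sample records follows the tissue and contradicts the titles, which were followed. All larvae were wandering and untreated, and each tissue and genotype had 4 libraries (16 in all). The dfr14 line had been outcrossed to a balancer stock before sequencing, and it was crossed repeatedly to the control strain only afterwards. The deletion and any other difference between the 2 lines therefore cannot be told apart in these data.

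*dfr* encodes a POU-domain transcription factor, and ribosomes reading through its first stop codon make a longer protein. The ring gland of the larva releases the steroid ecdysone, and the BRGC also holds the brain. The rest of the body holds fat body, gut, muscle, epidermis, trachea, gonads and hemocytes, the insect blood cells. Among the members are genes of humoral and cellular immunity, an eye pigment transporter, a chemoreceptor of the ionotropic family and a methuselah-type receptor, but 26 of the 35 are listed in the tables as uncharacterized proteins, and for these a role is given only where the annotation names one.

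The *vvl* transcript itself, in which the deletion lies, was higher in dfr14. It had 100.2, 90.5, 110.4 and 116 CPM in the dfr14 BRGC, against 63.1, 63.9, 64.3 and 68.4 CPM in the control BRGC, a log2 difference of 0.68 (SE 0.09, limma adjusted p = 0.00077). Its body levels were 67.7, 75.0, 83.3 and 80.7 CPM in dfr14 and 51.0, 49.3, 47.8 and 59.4 CPM in controls (log2 difference 0.56, SE 0.11, limma adjusted p = 0.066). These reads do not check the genotype labels, since a small deletion need not remove the transcript. Nothing in the labels states that the 4 libraries of a group came from separate larvae, but the study's methods call them biological replicates.

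Depth ran from 17.1 to 30.1 (1e6 reads counted per library). The neuron markers summed to 819 to 1468 CPM in the dfr14 BRGC and 967 to 1326 CPM in the control BRGC, and fat body markers to 72124 to 138608 CPM in the dfr14 body and 46454 to 81621 CPM in the control body. In the BRGC, all 4 neuroblast markers and 4 of 5 prothoracic gland markers passed limma as lower in dfr14, beside 5.9% of all genes. The 4 trachea markers summed to 335.1 to 502 CPM in the dfr14 BRGC and 251 to 292.5 CPM in the control BRGC, without overlap. Of these 4 markers, 1 passed limma as higher, beside 10.1% of all genes. Fat body markers summed to 89.1 to 332 CPM in the dfr14 BRGC and to 119, 7100.3, 55.9 and 936 CPM in the control BRGC, where library 2 stood apart. The body was dissected free of salivary glands, but the 5 salivary glue genes summed to 0.339, 0.0974, 0.146 and 0.171 CPM in dfr14 bodies and to 2.91, 8.08, 10135 and 1293 CPM in control bodies. In body control library 4 (numbered by column order) 1685 genes had 0 reads, and in each other body library 32 to 189. Its 4 testis markers summed to 0.779 CPM, compared with 84.1 to 473 CPM in dfr14 bodies and 347 to 907 CPM in the other control bodies. In bulk tissue, fewer cells of a type and less RNA per cell cannot be told apart, and the part of any of these differences in the values of the members was not tested.

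The conditions on size and overlap were met in the higher direction by 1.95% of all BRGC genes and 1.24% of all body genes, and in the lower direction by 0.38% and 0.664%. Both tissues together gave 0.616% of the 9256 shared genes as higher and 0.119% as lower, before any were set aside by symbol. No gene outside the symbols set aside met the size and overlap conditions in both tissues with opposite signs. Of the genes of both tables that met the conditions within 1 tissue, 134 did so for the BRGC and 91 for the body, and the 35 members are 26.1% and 38.5% of these. Since the members had to differ in both tissues, these counts are fixed by the rule and nothing is read from them.

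**Figure D1:**
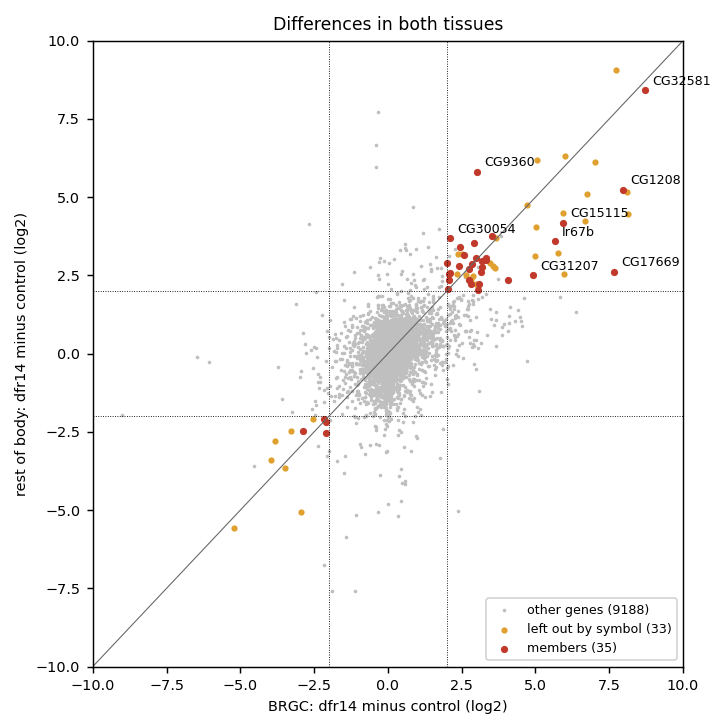
Log2 difference between dfr14 and control in the BRGC (horizontal axis) and in the rest of the body (vertical axis) for the 9256 genes of both tables. Red points are the 35 members and orange points the 33 genes set aside by symbol. Dotted lines mark a difference of 2 and the diagonal marks equal differences. CG9360 lies well above the diagonal, and CG17669 and CG1208 well below it.

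The 31 higher members had a median log2 difference of 3.02 for the BRGC and 2.88 for the body, beside medians of -0.02 and 0.12 over all genes. The 4 lower members had medians of -2.13 and -2.33. In 19 of the 35 the differences in the 2 tissues lay within 0.5 of each other. The difference was the larger one in the BRGC for 19 members and in the body for 16. The 2 tissues were normalized separately, and whether a difference was larger in one of them was not tested.

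Most higher members were barely read in controls. The mean was under 1 CPM in the control BRGC for 18 of the 31 higher members and in the control body for 17, and in dfr14 for 0 and 1 of them. Over all genes it was under 1 CPM for 7.22% in the control BRGC and 7.47% in the control body. In dfr14 these shares were 5.57% for the BRGC and 9.45% for the body. Members were chosen by their differences, so the counts are a description. Their median mean level was 7.54 CPM in the dfr14 BRGC and 0.457 CPM in the control BRGC, and 6.9 CPM in the dfr14 body and 0.832 CPM in the control body. By comparison, the median gene had 36.0 CPM in the dfr14 BRGC and 36.4 CPM in the control BRGC, and 19.2 CPM in the dfr14 body and 19.6 CPM in the control body. The tables hold only genes above a minimum of reads, and a member of few reads in controls entered them through its dfr14 libraries.

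**Figure D2:**
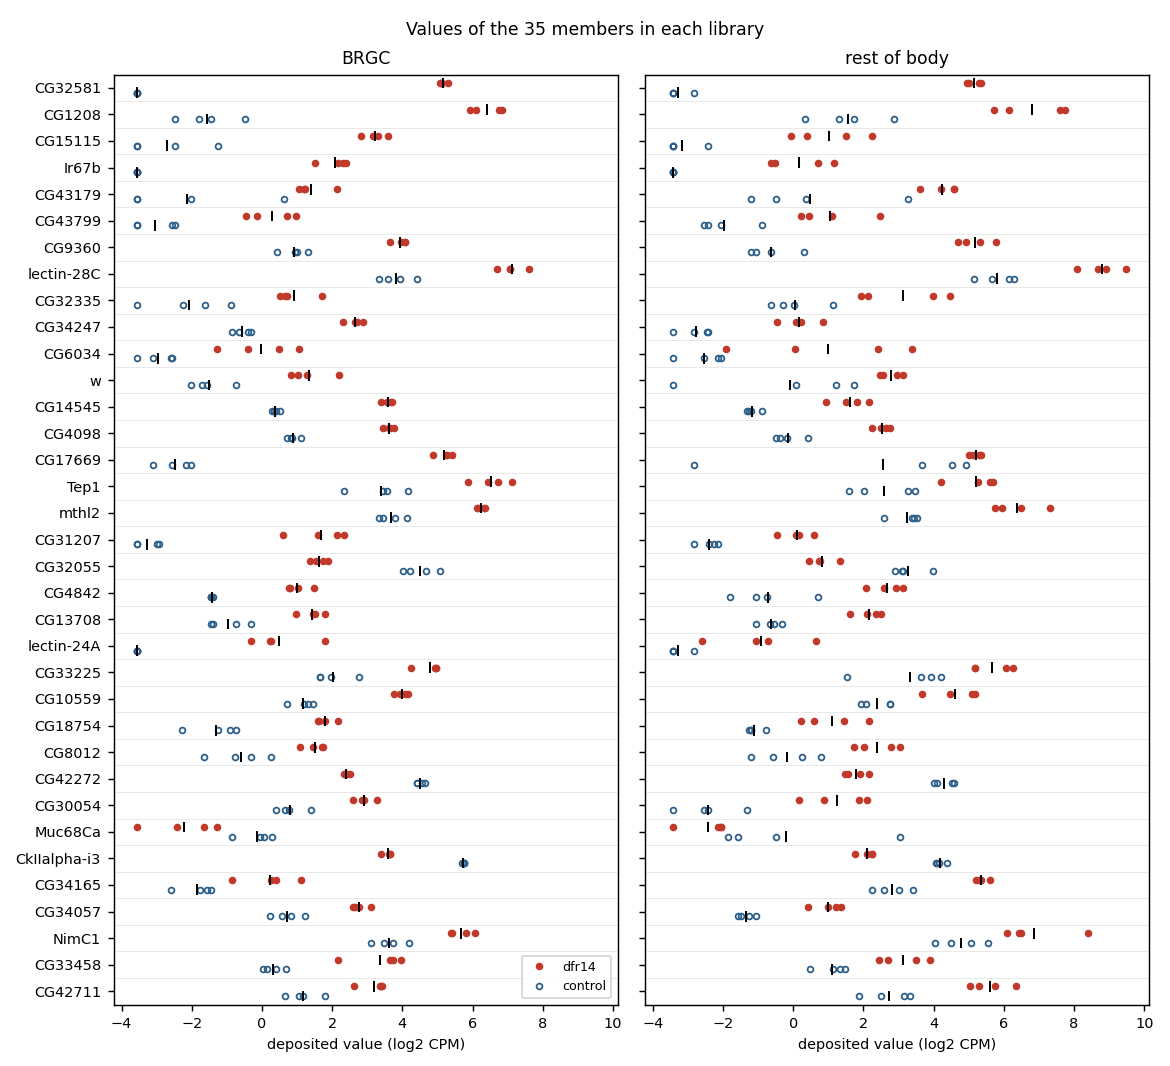
Deposited value (log2 CPM) of each of the 35 members in each library, for the BRGC on the left and the rest of the body on the right. Filled red points are the 4 dfr14 libraries, open blue points the 4 control libraries, and black ticks the group means. Members are ordered by the smaller of their 2 differences. Points at the left edge of a panel are libraries with 0 reads, and by the rule the groups do not overlap for any member.

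Among the members, the largest difference in each tissue belonged to CG32581 (FBgn0052581, named sordd2 in the annotation, chromosome X, 15796908 to 15799162, BDGP6). It had 33.4, 35.2, 39.7 and 34.2 CPM in the dfr14 BRGC, and no read in any control BRGC. In the body it had 39.1, 40.3, 30.6 and 32.4 CPM in dfr14, against 0, 0, 0 and 0.0458 CPM in controls. It was thus read evenly in all 8 dfr14 libraries and in control bodies by a single read in library 4. Set against 3 reads, the limit that 0 reads over the 4 control libraries allows, it was at least 1209-fold higher in the dfr14 BRGC. In the body the ratio was 3190 (95% interval 572 to 126055, exact binomial, counting error only). Such bounds and intervals pool the reads of 4 libraries in contrasts that the rule itself used. They do not cover the spread between libraries. The adjoining gene on the same strand, CG8974 (named sordd1), had 70.8, 88.0, 88.6 and 76.6 CPM in the dfr14 BRGC and 72.1, 87.8, 75.6 and 70.6 CPM in the control BRGC. Its log2 difference was 0.08 (SE 0.10, limma adjusted p = 0.62) in the BRGC and 0.14 (SE 0.18, adjusted p = 0.93) in the body. How reads that fit both of these similarly named genes would be counted is not given in the sources used here.

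CG1208 (FBgn0037386, chromosome arm 3R, 5831639 to 5838782) was second by the smaller of its differences in the 2 tissues. Its 4 dfr14 BRGC libraries had 61.3, 108, 68.7 and 114 CPM, and its control BRGC libraries 0.0951, 0.632, 0.283 and 0.203 CPM. Dfr14 bodies had 52.8, 193, 71.6 and 212 CPM of it and control bodies 1.17, 2.35, 7.28 and 3.25 CPM. The fold of the means was 290.4 for the BRGC and 37.7 for the body. Part of its exons overlap those of glob3 on the same strand and of an antisense RNA, so that reads of the overlap could belong to either.

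CG15115 and Ir67b were the other 2 members with a difference above 3.5 in both tissues and almost no control reads. CG15115 (FBgn0034413) had 7.01, 9.91, 12.1 and 8.95 CPM in the dfr14 BRGC and 0, 0.337, 0.0942 and 0 CPM in the control BRGC. In the body it had 1.22, 2.73, 0.874 and 4.61 CPM in dfr14, and 2 reads in all in controls. The ratio was 101 (95% interval 27.7 to 844, counting error only). The body libraries of dfr14 differed among themselves by more than those of the BRGC. Ir67b (FBgn0036083, 3L, 10429689 to 10431983), a member of the ionotropic receptors through which flies sense odours and tastes, had no read in any of the 8 control libraries. In dfr14 it had 2.74, 4.41, 5.16 and 4.92 CPM in the BRGC and 0.609, 2.14, 0.546 and 1.54 CPM in the body. It was at least 147-fold higher in the dfr14 BRGC and at least 35.9-fold higher in the dfr14 body, set against the same limit of 3 reads. With a filter of 10 reads in 4 libraries Ir67b was no longer a member.

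Among the other measured ionotropic receptors, none of 6 rose and 1 fell in the BRGC (Ir76a, log2 difference -1.14, SE 0.30, limma adjusted p = 0.033). In the body 1 of 11 rose (Ir56b, log2 difference 2.67, SE 0.48, limma adjusted p = 0.049) and none fell. Their median log2 difference was 0.20 for the BRGC and -0.29 for the body, beside -0.02 and 0.12 over all genes. Over all genes, 10.1% rose and 5.9% fell in the BRGC, and 1.09% rose and 0.328% fell in the body.

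CG17669 (FBgn0034352, named Dnaaf3, a dynein axonemal assembly factor, in the annotation) showed the widest gap between the tissues. In the BRGC it had 38.0, 42.6, 29.1 and 38.1 CPM in dfr14 and 0.0317, 0.0843, 0.141 and 0.162 CPM in controls, a 351-fold difference of the means. Bodies of dfr14 held 32.0, 39.3, 40.7 and 34.5 CPM and control bodies 22.7, 30.4, 12.7 and 0.0458 CPM. The 3 other control bodies thus lay near the dfr14 bodies, and control body library 4, the library with the testis markers near 0, held 1 read. Without that library the log2 difference in the body was 0.82, against 2.62 with it, and CG17669 was no longer a member. Its difference in the BRGC does not involve that library and was 7.44 to 7.80 with any 1 BRGC library left out.

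Of the members with known roles, lectin-28C, lectin-24A, Tep1 and NimC1 encode proteins of immunity. The C-type lectins, secreted proteins that bind sugars, gave 2 members. The first, lectin-28C (FBgn0040099), had 135, 197, 105 and 135 CPM in the dfr14 BRGC and 15.1, 21.2, 9.94 and 12 CPM in the control BRGC. In the body it had 408, 715, 270.5 and 485 CPM in dfr14 and 50.9, 35.3, 70.6 and 77.9 CPM in controls. It was the most abundant member in both tissues of dfr14, with 46.9 CPM per kb of exon for the BRGC and 154 for the body. Its exons overlap those of TwdlE on the opposite strand. TwdlE rose in the BRGC (log2 difference 1.2, SE 0.21, limma adjusted p = 0.0044) but was at 26.3 ± 3.43 CPM in the dfr14 BRGC and 11.7 ± 3.91 CPM in the control BRGC (SD, n = 4 each).

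Lectin-24A was far rarer. It had 1.11, 0.726, 3.36 and 1.08 CPM in the dfr14 BRGC and no read in the control BRGC. In the body it had 1.49, 0.39, 0.0728 and 0.512 CPM in dfr14 and 1 read in all in controls. The ratio of 46.5 had a 95% interval of 7.89 to 1880 (counting error only). The first dfr14 body library carried most of its reads there, and without that library the log2 difference was 1.82 in place of 2.35. Lectin-24A also ceased to be a member with a filter of 10 reads in 4 libraries. Of the 4 other lectins measured in the BRGC, Clect27 (log2 difference 2.05, SE 0.26, limma adjusted p = 0.00078) and lectin-24Db rose and Lectin-galC1 fell (log2 difference -2.99, SE 0.61, limma adjusted p = 0.010). Of the 6 measured in the body, only lectin-24Db rose. Lectin-24Db passed the test in both tissues, with 74.3, 100.1, 54.0 and 54.5 CPM in the dfr14 BRGC and 31.9, 43.4, 27.2 and 20 CPM in the control BRGC (log2 difference 1.21, SE 0.26, limma adjusted p = 0.012). Its body levels were 67.0, 129, 50.3 and 77.4 CPM in dfr14 and 16.2, 11.2, 21.9 and 26.7 CPM in controls (log2 difference 2.07, SE 0.36, limma adjusted p = 0.042). The median over the other lectins was 0.63 for the BRGC and 0.29 for the body. Over all genes, 10.1% rose and 5.9% fell in the BRGC, and 1.09% rose in the body.

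Tep1, a thioester protein related to the complement factors of vertebrates, had 106, 86.4, 138 and 58.7 CPM in the dfr14 BRGC and 11.7, 17.9, 4.99 and 10.9 CPM in the control BRGC. Dfr14 bodies had 48.6, 51.0, 18.5 and 38.4 CPM of it and control bodies 2.91, 3.93, 9.49 and 11 CPM. Its lowest dfr14 body library was within a factor of 2 of the highest control body library. Of the 4 other thioester genes, Tep4 (log2 difference 1.36, SE 0.17, limma adjusted p = 0.00062) and Tep2 (log2 difference 0.49, SE 0.12, limma adjusted p = 0.019) rose in the BRGC. None passed limma in the body, where 1 had an unadjusted p under 0.05 (13.5% of all genes did). The median difference of the 4 was 0.40 for the BRGC and 0.47 for the body. Over all genes, limma called 10.1% higher in the BRGC and 1.09% in the body.

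NimC1, a phagocytosis receptor of hemocytes, was among the members nearest the limit. It had 66.5, 42.8, 41.9 and 56.4 CPM in the dfr14 BRGC and 13.3, 18.1, 8.62 and 11.2 CPM in the control BRGC. Bodies of dfr14 held 86.2, 335, 67.5 and 88.9 CPM and control bodies 22.4, 16.2, 46.4 and 33.3 CPM. The second dfr14 body library stood high, and without it the log2 difference was 1.55 in place of 2.06. The 5 other hemocyte markers fixed for this check (Hml, eater, Pxn, PPO1 and PPO2) summed to 1965.0, 2296, 529 and 456 CPM in the dfr14 bodies and to 244, 223, 503 and 363 CPM in the control bodies. In the BRGC the same 5 summed to 583, 526, 828 and 556 CPM in dfr14 and 676, 846, 272 and 670 CPM in controls. The hemocyte sums overlapped between the genotypes in both tissues, and no marker of the 5 passed limma in either. Apart from that test, the 5 are read here only as sums. The part of hemocyte content in the value of NimC1 was not tested. Among the other Nimrod genes, 1 of 11 rose in the BRGC (NimC2, the neighbour of NimC1, log2 difference 1.11, SE 0.30, limma adjusted p = 0.034). None of 10 passed limma in the body, where 5 had an unadjusted p under 0.05 (13.5% of all genes did). The median difference of these other Nimrod genes was 0.13 for the BRGC and 0.61 for the body. Limma called 10.1% of all genes higher in the BRGC and 1.09% in the body.

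The 3 prophenoloxidases, enzymes of melanization, gave no member. One of them, PPO3, rose in the BRGC (log2 difference 1.83, SE 0.35, limma adjusted p = 0.0076), where 10.1% of all genes rose. In the body the differences of the 3 ran from 2.31 to 2.69, but none passed limma after adjustment. All 3 had an unadjusted p under 0.05 there, as did 13.5% of all genes. The median difference of the 3 was 1.46 in BRGCs and 2.37 in bodies.

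The white gene (*w*, FBgn0003996, X, 2790599 to 2796466) encodes a transporter that brings pigment precursors into the pigment cells of the eye. It had 2.37, 4.51, 1.68 and 1.97 CPM in the dfr14 BRGC and 0.222, 0.253, 0.518 and 0.162 CPM in the control BRGC, a 9.1-fold difference of the means. Among bodies it had 5.76, 5.5, 8.67 and 7.68 CPM in dfr14 and 2.23, 3.19, 0.971 and 0 CPM in controls. Without body control library 4, which held no read of it, the log2 difference in the body was 1.77 in place of 2.88. A mutant allele of *w* names the background strain in the labels of both genotypes, and the allele carried by each library was not analysed here. None of the other eye pigment genes passed limma, of 16 for the BRGC and 15 for the body. Of these, 7 and 2 had an unadjusted p under 0.05, as did 31.0% and 13.5% of all genes. The median difference of the other eye pigment genes was -0.02 for the BRGC and 0.21 for the body.

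Yellow (*y*), which acts in the darkening of the cuticle, was no member but passed the test in both tissues. It had 2.46, 4.05, 5.12 and 3.23 CPM in the dfr14 BRGC and 1.14, 1.39, 0.801 and 0.891 CPM in the control BRGC (log2 difference 1.72, SE 0.28, limma adjusted p = 0.0033). Its body levels were 2.37, 1.70, 12.1 and 8.08 CPM in dfr14 and 0.291, 0.154, 0.132 and 0.229 CPM in controls (log2 difference 3.99, SE 0.66, limma adjusted p = 0.037). The dfr14 libraries of the body thus split into a low and a high pair, all above the controls. In the yellow family as a whole, with *y*, 5 of 11 rose and none fell in the BRGC, and in the body only *y* passed. The median over these 11 was 0.55 in BRGCs and 0.24 in bodies. The shares called over all genes were 10.1% higher and 5.9% lower in the BRGC, and 1.09% higher in the body.

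The methuselah-type receptors, G protein-coupled receptors named after a gene of lifespan, gave the member mthl2 (FBgn0035623, 3L, 5604790 to 5607190). It had 71.3, 81.5, 69.8 and 80.1 CPM in the dfr14 BRGC and 13.7, 17.3, 9.94 and 10.9 CPM in the control BRGC. Dfr14 bodies had 54.2, 159, 61.2 and 89.3 CPM of it and control bodies 10.4, 5.93, 10.7 and 11.4 CPM. Of the 13 other receptors measured in the BRGC, 5 rose and none fell, beside 10.1% and 5.9% over all genes. The 5 rose by log2 differences of 0.39 (mthl10) to 1.16 (mthl14). None of 10 passed limma in the body, where 5 had an unadjusted p under 0.05 (13.5% of all genes did). The median over the other receptors was 0.46 for the BRGC and 0.48 for the body.

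The UDP-glycosyltransferases, which attach sugars to small molecules, gave no member, but Ugt86Di was the gene of this family nearest the limit. It had 11.8, 15.1, 14.4 and 11.7 CPM in the dfr14 BRGC and 67.2, 75.4, 85.5 and 65.5 CPM in the control BRGC (log2 difference -2.46, SE 0.12, limma adjusted p = 1.7e-06). Bodies of dfr14 held 4.06, 5.94, 7.57 and 4.50 CPM and control bodies 21.6, 17.2, 18.2 and 28.8 CPM (log2 difference -1.95, SE 0.27, limma adjusted p = 0.017). Of the 5 other genes of the family in the BRGC, 3 rose and none fell, beside 10.1% and 5.9% over all genes. In the body Ugt86Di alone of the 14 measured passed, as lower, beside 0.328% of all genes. The median over the family was 0.65 in BRGCs and 0.25 in bodies.

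The remaining members named by the size of their smaller difference are uncharacterized. CG9360 (FBgn0030332) had its larger difference in the body, where it had 39.8, 54.4, 30.1 and 25.8 CPM in dfr14 and 0.389, 0.346, 1.15 and 0.55 CPM in controls (61.7-fold). In the BRGC it had 16.8, 16.7, 12.5 and 15.3 CPM in dfr14 and 2.41, 1.9, 1.27 and 1.82 CPM in controls (8.27-fold). The control BRGC held more of it than any control body, while the dfr14 libraries ran the other way round, with levels set by separate normalization of the 2 tables.

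CG43179 rested on uneven controls. It had 2, 2.28, 4.32 and 2.2 CPM in the dfr14 BRGC and 0, 1.47, 0 and 0.162 CPM in the control BRGC. Among bodies it had 23.6, 23.9, 12 and 18.4 CPM in dfr14 and 0.34, 0.616, 9.62 and 1.19 CPM in controls. The one high control body was library 3, the library with the highest sum of salivary glue genes. The part of that difference in the value of CG43179 was not tested, and with any 1 library left out its difference stayed between 3.06 and 4.69 over both tissues.

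CG6034, CG43799 and CG32335 (named meep) varied widely between dfr14 bodies. CG6034 had 0.948, 10.2, 5.24 and 0.171 CPM in dfr14 bodies and 0.146, 0.077, 0.132 and 0 CPM in control bodies. In the BRGC it had 0.325, 0.674, 1.99 and 1.31 CPM in dfr14 and 0.0317, 0.0843, 0 and 0.081 CPM in controls. The lowest dfr14 body exceeded the highest control body by little, so its separation in the body is narrow.

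CG43799 had 0.65, 0.83, 1.87 and 1.55 CPM in the dfr14 BRGC and 0.0951, 0.0843, 0 and 0 CPM in the control BRGC, and 2.03, 5.45, 1.27 and 1.08 CPM in dfr14 bodies and 0.146, 0.077, 0.441 and 0.0917 CPM in control bodies. CG32335 had 1.35, 1.5, 3.21 and 1.55 CPM in the dfr14 BRGC and 0.127, 0.463, 0 and 0.243 CPM in the control BRGC. Its body levels were 15.8, 21.9, 4.30 and 3.70 CPM in dfr14 and 0.923, 0.731, 2.07 and 0.55 CPM in controls. CG43799 and CG32335 had 5 and 21 reads in all in the control BRGC.

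CG34247, CG14545 and CG4098 were even in the BRGC. CG34247 had 4.87, 7.21, 6.5 and 6.18 CPM in the dfr14 BRGC and 0.666, 0.548, 0.471 and 0.729 CPM in the control BRGC, and 1.08, 0.633, 1.71 and 0.967 CPM in dfr14 bodies and 0.0486, 0, 0.0883 and 0.0917 CPM in control bodies. CG14545 had 10.4, 11.8, 12.9 and 12.7 CPM in the dfr14 BRGC and 1.24, 1.14, 1.18 and 1.34 CPM in the control BRGC, and 3.45, 4.33, 2.73 and 1.82 CPM in dfr14 bodies and 0.34, 0.308, 0.441 and 0.321 CPM in control bodies. CG4098 had 12.3, 13.6, 10.8 and 12.3 CPM in the dfr14 BRGC and 2.06, 1.69, 1.74 and 1.54 CPM in the control BRGC, and 4.67, 6.14, 5.61 and 6.71 CPM in dfr14 bodies and 0.68, 0.616, 0.794 and 1.24 CPM in control bodies. For these 3 the difference with any 1 BRGC library left out stayed within 2.69 and 3.30 (log2).

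The 4 members lower in dfr14 all lie on chromosome arm 3L, the arm of *dfr*, which holds 19.7% of the shared genes placed in the annotation. Before genes were set aside by symbol, 11 had met the conditions as lower. The arms of those set aside were not examined. CkIIalpha-i3 (FBgn0025676, 3L, 708601 to 710607), listed as an interactor of the casein kinase II alpha subunit, varied little between libraries. It had 10.4, 12.3, 12.5 and 12.3 CPM in the dfr14 BRGC and 51.9, 53.7, 53.6 and 53.6 CPM in the control BRGC, and 3.32, 4.63, 4.22 and 4.67 CPM in dfr14 bodies and 17.7, 16.6, 17.0 and 20.9 CPM in control bodies. Its log2 differences of -2.16 and -2.08 lay within 0.1 of each other.

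CG42272 (FBgn0259167, 3L, 5803033 to 5805749) was likewise even, with 4.97, 5.24, 5.05 and 5.57 CPM in the dfr14 BRGC and 23.5, 25.1, 21.2 and 21.4 CPM in the control BRGC. Dfr14 bodies had 4.40, 3.6, 2.88 and 2.67 CPM of it and control bodies 23.9, 16.1, 17.0 and 22.7 CPM. It overlaps S6k on the opposite strand, outside the exons of S6k, and S6k rose in the BRGC (log2 difference 0.44, SE 0.11, limma adjusted p = 0.028). CG32055 (FBgn0052055) had 3.57, 2.80, 2.49 and 3.28 CPM in the dfr14 BRGC and 18.6, 25.2, 33.6 and 16.1 CPM in the control BRGC. Bodies of dfr14 held 1.29, 1.56, 2.40 and 1.59 CPM and control bodies 8.70, 7.35, 8.47 and 15.6 CPM. In the BRGC the highest dfr14 and lowest control levels were 5.57 and 21.2 CPM for CG42272 and 3.57 and 16.1 CPM for CG32055. In the body they were 4.40 and 16.1 CPM for CG42272 and 2.40 and 7.35 CPM for CG32055.

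Muc68Ca, a mucin gene, was the least secure. It had 0.325, 0.104, 0 and 0.234 CPM in the dfr14 BRGC and 0.951, 0.885, 0.471 and 1.13 CPM in the control BRGC, from 14 and 89 reads in all. Among bodies it had 0.135, 0.146, 0.146 and 0 CPM in dfr14 and 0.243, 0.616, 8.16 and 0.183 CPM in controls, from 9 and 210 reads. Control body library 3, the library with the highest sum of salivary glue genes, held most of those reads. Without it the log2 difference in the body was -1.11 in place of -2.2, and whether this library's glue gene content bears on the value was not tested.

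The other 14 members were all higher in dfr14 and are given by their range. In the BRGC their log2 differences ran from 2.02 (CG42711) to 4.93 (CG31207) and in the body from 2.03 (CG33458) to 3.69 (CG30054). CG31207 had 1.44, 4.93, 4.32 and 2.95 CPM in the dfr14 BRGC and 2 reads in all in the control BRGC. The ratio was 173 (95% interval 47.5 to 1435, counting error only). Of those not described elsewhere, CG33225 was the best read in both tissues, at 27.8 ± 5.98 CPM in the dfr14 BRGC and 4.19 ± 1.74 CPM in the control BRGC and at 53.7 ± 20.5 CPM in the dfr14 body and 12.1 ± 6.68 CPM in the control body (SD, n = 4 each). CG34165 was well read only in the body, at 41.3 ± 5.20 CPM in dfr14 and 7.30 ± 2.61 CPM in controls, and had 1.22 ± 0.655 CPM in the dfr14 BRGC and 0.207 ± 0.089 CPM in the control BRGC. CG10559 had 15.8 ± 1.98 CPM in the dfr14 BRGC and 2.2 ± 0.468 CPM in the control BRGC, and CG4842 had 1.97 ± 0.507 CPM and 0.287 ± 0.00567 CPM there. CG18754, CG33458, CG34057, CG30054 and CG42711 lay between 3.44 and 11.4 CPM in the dfr14 BRGC and between 0.355 and 2.27 CPM in the control BRGC. CG18754 shares exon sequence with SPE on the same strand, which was not called in either tissue (limma adjusted p = 0.055 for the BRGC and 0.97 for the body). The 4 left in this group, CG13708, CG8012, mthl2 and NimC1, are described with the genes near *dfr* and with the families.

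Members just inside the limit were CG42711 (smaller log2 difference 2.02), CG33458 (2.03) and NimC1 (2.04). Just outside it lay AttA (1.98), Tektin-C (1.96) and Ugt86Di (1.95), all lower in dfr14. AttA, an antibacterial peptide, averaged 0.245 ± 0.121 CPM in the dfr14 BRGC and 1.17 ± 0.317 CPM in the control BRGC. Tektin-C, a protein of axonemal microtubules, averaged 0.0925 ± 0.055 CPM in the dfr14 BRGC and 89.0 ± 17.9 CPM in the control BRGC, but 8.63 ± 4.58 CPM in the dfr14 body and 31.1 ± 12.1 CPM in the control body (SD, n = 4 each). A further 10 genes had differences of at least 2 with 1 sign in both tissues but overlapping groups, led by Obp46a (log2 differences -4.55 and -3.58) and CG9512 (3.11 and 2.92).

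The libraries did not contribute evenly. Among the 31 higher members, the second dfr14 body library had the highest level of its group for 17, the first dfr14 BRGC library the lowest for 16, and the second control BRGC library, the one with the high fat body sum, the highest of its group for 15. Without that control library the rule returned 36 genes, all 35 members among them. Members also varied more between libraries of a group than genes at large. The median SD of the log2 values over the 35 members was 0.33 in the dfr14 BRGC and 0.47 in the control BRGC, beside 0.16 and 0.17 over all genes. In the body it was 0.58 in dfr14 and 0.51 in controls, beside 0.39 and 0.39. Members with many reads ranged widely. In the dfr14 body the SD was 1.05 for NimC1 and 1.01 for CG1208, but 0.20 for CG32581. In the dfr14 BRGC it was 0.11 for CG32581 and for mthl2. Higher members had a median of 0.457 CPM in the control BRGC, beside 36.4 CPM over all genes. The SDs were not compared at like levels.

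With each of the 16 libraries left out in turn, the rule returned 31 to 41 genes, and 21 of the 35 members were returned every time. NimC1 was lost in 7 of the 16 runs, CG42711 in 5, Muc68Ca in 4 and CG33458 in 3. Body control library 4 alone decided 3 memberships, those of CG17669, CG33225 and *w*.

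**Figure D3:**
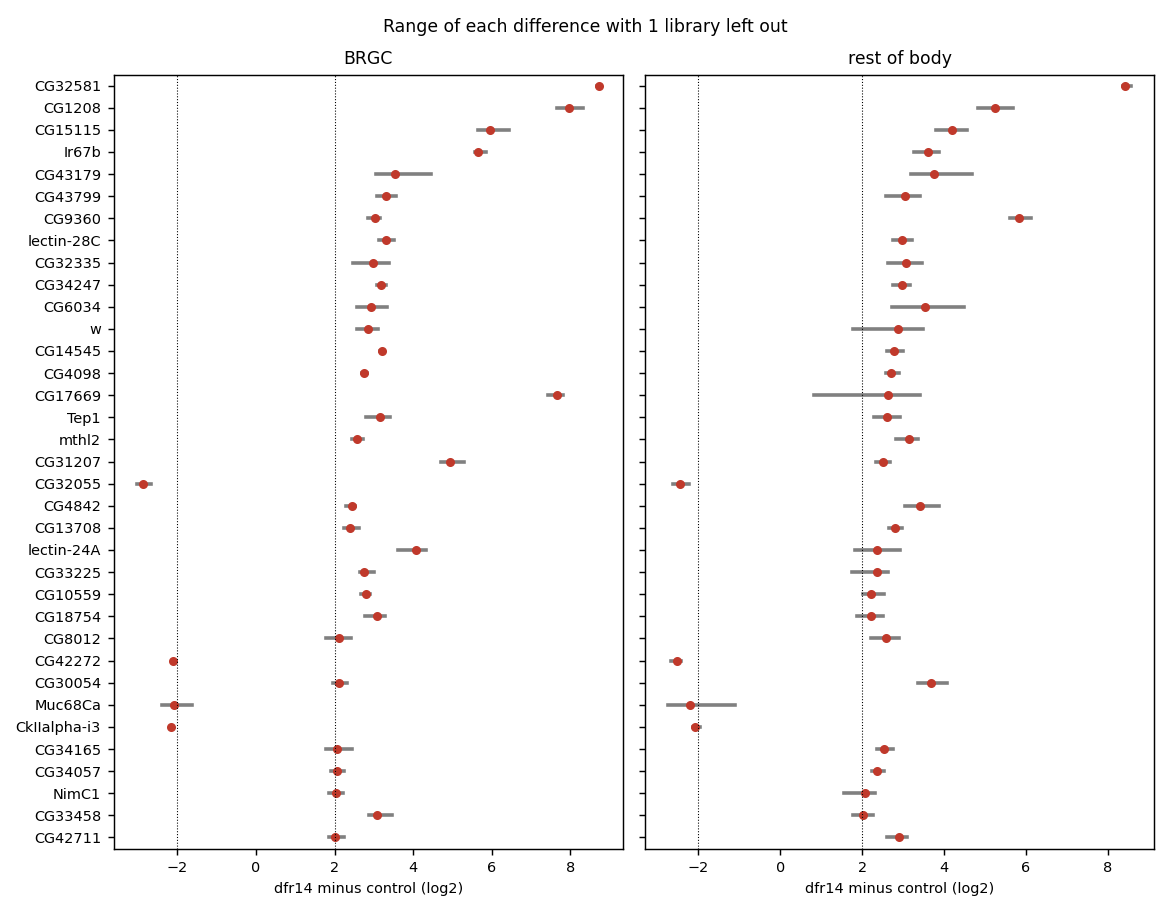
Log2 difference between dfr14 and control for each member (red point) and its range when each of the 8 libraries of that tissue is left out in turn (grey bar), for the BRGC on the left and the rest of the body on the right. Dotted lines mark a difference of 2. The widest bar is that of CG17669 in the body, from 0.82 to 3.41.

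Position in the genome was not part of the rule. All 35 members, and 9104 of the 9256 genes of both tables, could be placed by gene ID in the BDGP6 annotation. Chromosome arm 3L held 14 members, 40.0% of them, beside 19.7% of all placed genes. Arm 2L held 7 members, arm 3R held 6, arm 2R held 5 and chromosome X held 3 (8.57%, beside 16.5% of placed genes). The third chromosome as a whole held 57.1% of the members and 44.3% of placed genes. Without its 20 members, 15 remained, all of them higher in dfr14.

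**Figure D4:**
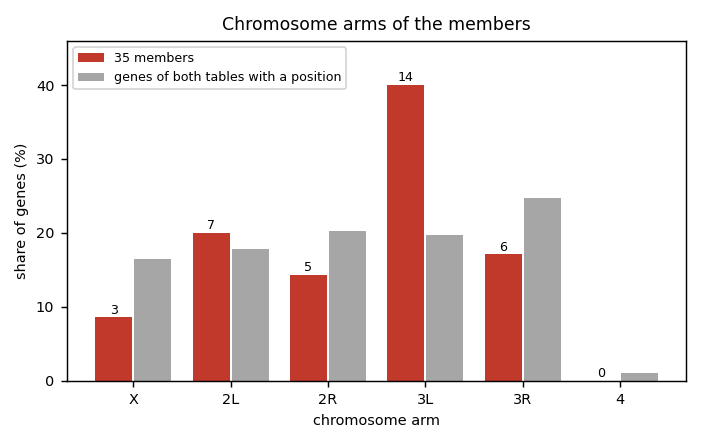
Share of the 35 members (red) and of the 9104 placed genes of both tables (grey) on each chromosome arm, in percent, with the number of members above each red bar. Arm 3L, which carries *dfr*, holds 14 members.

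Within 3 Mb of *dfr* lay 4 members (11.4%, beside 5.4% of placed genes), and within 1 Mb only CG42272. In addition to mthl2 and CG42272, the 3 Mb held CG13708 and CG8012. CG13708 (3L, 4829092 to 4833591) had 3.39, 2.65, 1.87 and 2.76 CPM in the dfr14 BRGC and 0.285, 0.295, 0.518 and 0.729 CPM in the control BRGC, and 2.98, 4.24, 5.54 and 5.06 CPM in dfr14 bodies and 0.534, 0.385, 0.706 and 0.596 CPM in control bodies. CG8012 (3L, 8215280 to 8216198) had 2.04, 3.27, 3.21 and 2.67 CPM in the dfr14 BRGC and 1.11, 0.506, 0.236 and 0.729 CPM in the control BRGC, and 8.06, 6.82, 3.2 and 3.93 CPM in dfr14 bodies and 0.34, 0.577, 1.1 and 1.65 CPM in control bodies. Of the 7 members within 5 Mb, 3 were lower in dfr14. Sequence near *dfr* is inherited with the mutation, and linked alleles of the dfr14 line cannot be told apart from the mutation.

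Members were shorter than genes at large. Their exons spanned a median of 1276 bases, beside 2174 for all placed genes, and 25 of the 35 were under 2000 bases (71.4%, beside 45.5%). All 35 are annotated as protein coding, beside 8835 of the 9104 placed genes. The rule had set loci with CR symbols aside, so nothing is read from this. Symbols made of CG and a number were carried by 26 (74.3%, beside 39.5% of placed genes). The rule set genes aside by symbol, and the placed genes include such symbols. The 2 shares are therefore not alike, and nothing is read from them. Within 250 kb of each other lay 6 pairs of members. The closest was NimC1 and CG42711 on 2L, 41.8 kb apart, and the other pairs were on 3L. Such pairs were not counted for genes at large, so the number is not read as few or many. Annotated genes overlap 14 of the members, in 6 cases by exons, mostly on the opposite strand. The libraries were stranded, but whether the counting used strand is not given in the sources used here.

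The nearest gene measured in both tissues on each side of every member was tested, passing over other members and genes with the symbols set aside. An adjacent gene that met the rule was thus left out, while the share over all genes includes such genes. Some neighbours lay far off, such as Ku80, 117 kb from Tep1. In the BRGC, 12 of the 70 neighbours rose (17.1%, beside 10.1% of all genes) and 4 fell (5.71%, beside 5.9%). The lower share is close to the background, and the higher share differs from it by about 5 genes. Of the 16 called neighbours, 11 changed in the direction of their member and 5 in the opposite direction. Leaving out the 10 neighbours that overlap a member, 13 of 60 were called. In the body limma called none of the 70, also without an intensity trend or with a robust one, and 16 had an unadjusted p under 0.05 (22.9%, beside 13.5% of all genes). The median difference of the neighbours was 0.08 for the BRGC and 0.17 for the body, beside -0.02 and 0.12 over all genes.

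**Figure D5:**
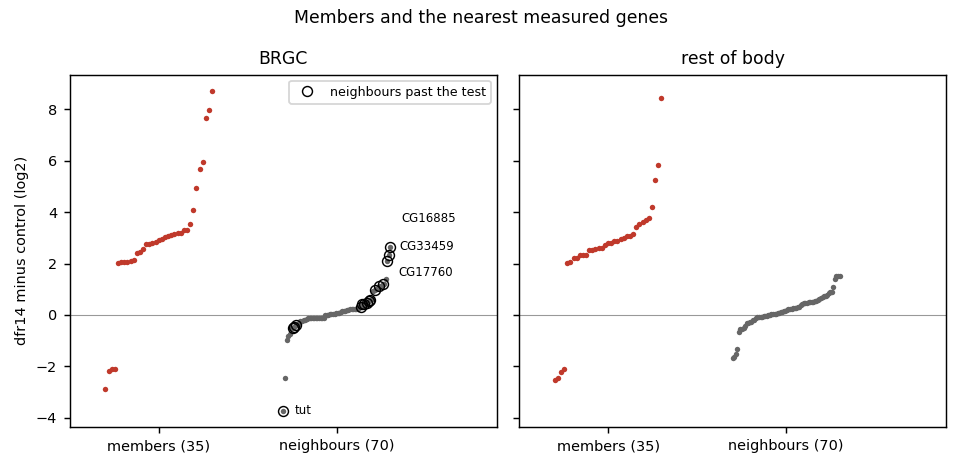
Log2 difference between dfr14 and control of the 35 members (red) and their 70 neighbours (grey) in the BRGC and the rest of the body. Each set is sorted from low to high. Neighbours are the nearest measured genes, passing over members and genes with the symbols set aside. Circled neighbours passed limma. In the BRGC, 3 of these rose by over 2 (CG16885, CG33459 and CG17760) and tut fell by over 2, and in the body none passed.

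In 3 places a higher member lay beside a gene that rose at least 4-fold in the BRGC. CG17760, 0.46 kb from CG30054 and the next gene after it on 2R, had 14.1, 15.4, 18.3 and 16.8 CPM in the dfr14 BRGC and 3.2, 3.75, 4.62 and 3.52 CPM in the control BRGC (log2 difference 2.08, SE 0.15, limma adjusted p = 2e-05). On the other side of CG30054, Galphaq, a G protein subunit, was at a log2 difference of 0.33 and did not pass (limma adjusted p = 0.27). CG33459, 0.25 kb from CG33458, had 24.8, 26.0, 26.7 and 22.3 CPM in the dfr14 BRGC and 6.18, 8.64, 2.17 and 4.90 CPM in the control BRGC (log2 difference 2.33, SE 0.34, limma adjusted p = 0.0019). CG16885, 1.2 kb from CG42711, had 3.95, 4.20, 4.01 and 3.75 CPM in the dfr14 BRGC and 0.634, 0.421, 0.707 and 0.567 CPM in the control BRGC (log2 difference 2.63, SE 0.22, limma adjusted p = 5.8e-05). In the body these 3 had differences of 1.53, 0.56 and 0.72 and did not pass.

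NimC1 was flanked by He, a gene of hemocytes, and NimC2, and both rose in the BRGC (He by a log2 difference of 0.96, SE 0.27, limma adjusted p = 0.039). In the body He had a difference of 1.5 (limma adjusted p = 0.27) and NimC2 of 0.89 (limma adjusted p = 0.21). The opposite case was tut, beside CG8012, which fell in the BRGC. It had 0.325, 0, 0.153 and 0.281 CPM in the dfr14 BRGC and 2.89, 4.21, 3.16 and 2.11 CPM in the control BRGC (log2 difference -3.72, SE 0.51, limma adjusted p = 0.0012), while the adjoining CG8012 was higher in dfr14. In the body tut had a difference of -0.44 and did not pass. The other called neighbours, Ku80, CG13895, CG13707, S6k, ect, scramb1, CG6084, CG32164, Prosbeta6 and TwdlE, changed by 0.33 to 1.2 in size.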

How the data were processed

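RNA-seq of 16 libraries was analysed. Per the labels and the study's methods, the authors used Trim Galore for trimming, STAR for alignment to BDGP6, featureCounts for reads per gene and edgeR for TMM scaling. The values deposited by the authors are log2 CPM with a prior count of 2.0, for 9731 genes of the BRGC and 12509 of the body. The per-sample column names give neither genotype nor replicate number. Columns were assigned to control or dfr14 because they average, less the floor, to the group means named wt and dfr in the same table. The genotype tag in the sample records follows the tissue and contradicts the titles, which were followed. A further 16 per-sample columns repeat the values on a zero baseline and were not used, nor were the authors' own fold changes and p-values.

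Subtracting the prior count gave back whole reads (largest distance from a whole read 4.6e-08), and CPM means and SDs come from them. Differences are of the deposited log2 values, which understate the change of genes with few reads. Genes outside the rule were tested per tissue with limma 3.58.1 in R 4.3.3 with an intensity trend and p-values adjusted over the whole table (Benjamini-Hochberg, 0.05). Members were not tested. The fit was tested on simulated data, and other scalings, priors, filters, limits and left-out libraries were tried. The members, lists and rule for named genes (the largest smaller differences, the lower members, the listed families, genes at the limit and near *dfr*, *w* and *y*) were chosen with earlier results of these data known. CG8974 and the neighbours and family genes called in 1 tissue only were named after their values were seen. Python 3.11.15, numpy 2.4.6, pandas 2.3.3, scipy 1.17.1 and matplotlib 3.10.9 were used.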

Additional observations from a re-analysis of the deposited data

Results flagged for a closer look

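Of 140 groups of 4 libraries (35 members, 2 tissues, 2 genotypes), 11 held a library far from the other 3 on the log2 scale. The cutoff was set to flag about 1 in 20 by chance. That rate need not hold for groups near 0 reads or for genes chosen on these values, so nothing is read from the count. In the body, control library 4 gave 4 of them. It was low for CG17669 at -2.84 (0.0458 CPM, against 12.7 to 30.4 CPM in the other controls). It was high for CG32581 and lectin-24A at -2.84 each and for CG15115 at -2.43, where it held 1 or 2 reads and the other controls none. Control body library 2 was low for mthl2 at 2.59 (5.93 CPM, against 10.4 to 11.4 CPM), and dfr14 body library 4 for Muc68Ca at -3.42 (0 reads). In the BRGC, dfr14 library 1 was low for CG33225 at 4.25 (18.9 CPM, against 30.2 to 31.2 CPM), for CkIIalpha-i3 at 3.4 (10.4 CPM, against 12.3 to 12.5 CPM) and for CG42711 at 2.61 (6.03 CPM, against 10.2 to 10.6 CPM). The third dfr14 BRGC library was high for CG32335 at 1.72 (3.21 CPM, against 1.35 to 1.55 CPM). Control BRGC library 1 was low for CkIIalpha-i3 at 5.70 (51.9 CPM, against 53.6 to 53.7 CPM).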

How the results depend on the processing

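The number of members was 35, and 32 with library size alone (28 shared, without CG10559, CG17669, CG33458, CG34057, CG34165, CG42711 and NimC1), 34 with RLE size factors (32 shared, without CG17669, CG33458 and NimC1), 37 with a prior count of 0.5 (35 shared) and 30 with a filter of 10 reads in 4 libraries (30 shared, without CG34165, CG6034, Ir67b, Muc68Ca and lectin-24A). It was 57 with a limit of 1.5, 7 with a limit of 3, and 15 without the third chromosome, an alternative chosen after seeing the data. Library size alone shifted the median of all genes by -0.08 for the BRGC and -0.24 for the body, and RLE by -0.01 and -0.10, and all changes are read against these. The share of calls that were higher then moved, from 980 higher and 574 lower genes in the BRGC to 782 and 988 with library size alone, and in the body from 136 and 41 to 113 and 81. With 1 library left out, members numbered 31 to 41, genes called 901 to 1613 for the BRGC (main 1554) and 72 to 245 for the body (main 177), and neighbours called 11 to 16 for the BRGC and 0 to 1 for the body. The lowest BRGC counts came without dfr14 library 4 (901) and control library 4 (914). In the body every library but controls 3 and 4 lowered the count to 72 to 104. The 1 neighbour was CG1213, beside CG1208, at a log2 difference of -2.24 (SE 0.35, limma adjusted p = 0.046) without body control library 3. Among the members and the neighbours followed through these settings, only CG8974, which was not called, changed sign, to a log2 difference of -0.1 in the body with library size alone (main 0.14). No paired analysis was possible because the columns carry no replicate numbers. Members of few reads are limited by depth.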
